A study of Mus musculus with 6 samples.

Results

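miR-223, miR-142-3p and miR-142-5p are microRNAs (miRNAs) of blood cells, and their levels were read in classical and non-classical mouse monocytes. Each had 1 assay on a TaqMan low-density array, so that 3 of the 750 miRNA assays are described. They were chosen by assay name, without the assay number at its end, and names marked with #, the sign of a hairpin's opposite strand, were left out. The array came as 2 cards that hold 375 miRNA assays each. They are listed one after the other and named A and B for that order, and all 3 assays lay on card A.

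Monocytes were freshly isolated from 3 DBA/1 mice, an inbred strain, and each mouse gave 1 Ly6Chigh and 1 Ly6Clow sample, so that there were 3 samples per subset and 6 in all. Ly6Chigh monocytes are the classical, inflammatory subset of mouse blood and Ly6Clow monocytes the non-classical subset that patrols vessel walls. The labels name no treatment and no genetic change, and give no age. From each sample, 10 ng of RNA was reverse transcribed with stem-loop primers and preamplified, and each assay was read as its threshold cycle (Ct), the point in the PCR where fluorescence crosses a fixed line. A Ct lower by 1 cycle stands for 1 log2 unit more template, and a reaction without signal is listed at 40.

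A miRNA is cut from the arms of an RNA hairpin and loaded into an Argonaute protein, which it guides to messenger RNAs that pair with its seed, the bases near its 5′ end, so that less protein is made from them. miR-223 is known as a myeloid miRNA, abundant in neutrophils and monocytes, where it restrains granulocyte production and inflammatory signalling. miR-142 is made in nearly all blood lineages, and both arms of its hairpin are used as mature miRNAs, which makes the pair a general sign of blood cells.

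The mature sequences are shown because the seed decides which messages a miRNA can pair with. All 3 names were found among the mature mouse miRNAs of RefSeq (GRCm38.p6), where the arms of miR-142 are now called miR-142a, and the older name miR-223, without an arm, was taken as miR-223-3p. They are written 5′ to 3′ with the seed, bases 2 to 8, in capitals.
mmu-miR-223: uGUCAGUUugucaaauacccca
mmu-miR-142-3p: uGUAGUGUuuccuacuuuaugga
mmu-miR-142-5p: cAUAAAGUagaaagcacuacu
The 3 seeds differ from each other, and each was held by 0 other names among the 1679 mature mouse miRNAs of the table. The miRNAs therefore form 3 seed groups of 1 member. miR-223 has 22 bases, miR-142-3p 23 and miR-142-5p 21.

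Both miR-142 assays read products of 1 hairpin, the gene Mir142 on the forward strand of chromosome 11. The hairpin is printed with both arms in capitals, because the gap between the assays is a gap between arms of 1 precursor.
Mir142 hairpin: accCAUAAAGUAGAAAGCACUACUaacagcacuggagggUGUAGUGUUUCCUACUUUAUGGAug
In these 64 bases, miR-142-5p takes positions 4 to 24 and miR-142-3p positions 40 to 62, with 15 bases between the arms. RefSeq lists a second gene, Mir142b, on the opposite strand at the same place. Its mature miRNA, mmu-miR-142b, is the start of the reverse complement of miR-142-3p and shares a run of 10 bases with miR-142-5p, and how far an assay for miR-142 also reads it was not tested. miR-223 comes from Mir223 on chromosome X, which lies inside the long non-coding RNA gene F630028O10Rik, and the annotation has no other miRNA gene within 10000 bases of it.

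Of the 6 samples, 1 stood apart on card A, and it bears on every comparison of the 3 miRNAs. It was the Ly6Chigh sample of mouse 1. Over all 375 miRNA assays of this card, Spearman's rho between its Ct values and those of any other sample was 0.188 to 0.24, whereas pairs of the other 5 samples reached 0.73 to 0.922 (across assays, which are not independent replicates). Of 86 assays under a Ct of 35 in the other 5 samples, 46 were listed at 40 in this one. The same count, taken for each other sample in turn, was at most 3. Those sets were smaller, with 40 to 44 assays, since they needed a Ct under 35 in the Ly6Chigh sample of mouse 1 too. Conversely, 43 assays had a Ct under 35 in this sample alone and were at 40 in the other 5. Its lowest Ct on card A, 19.95, belonged to the mouse assay of miR-293 (named after its values were seen), which was at 40 in the other 5 samples, whereas the rat assay of miR-293 on card B was under 35 in all 6.

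On card B this sample did not stand apart. Its correlation with the Ly6Clow sample of the same mouse was 0.793, and 1 of the 20 assays under 35 in the other 5 samples was at 40 in it. On card A, the small nuclear RNA U6, by which the values were normalized, had a Ct of 22.66 in it and of 19.80 to 24.66 in the other 5 samples. Other control wells differed between mice. The control snoRNA202 on card A had a Ct of 22.97 and 18.99 in the Ly6Chigh and Ly6Clow samples of mouse 2, 31.92 and 30.96 in those of mouse 1, and 40 in both of mouse 3. On card B, the plant control ath-miR159a had a signal only in the Ly6Clow sample of mouse 2, at 33.97. The cause was not tested, and each result is given with and without this sample.

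miR-223 had a Ct of 40, 21.95 and 16.96 in the Ly6Chigh samples of mice 1, 2 and 3, and of 18.97, 18.97 and 18.95 in the Ly6Clow samples. It was undetected in the Ly6Chigh sample of mouse 1 and strongly detected in the other 5, and the Ly6Clow values lay between the highest and the lowest Ly6Chigh value, so that the subsets overlapped. Among the 96 card A assays that stayed under a Ct of 35 in all 3 Ly6Clow samples, its Ct range over these samples was 0.024 cycles against a median of 2.01, and 2 of the 96, miR-223 and miR-138, had a range of 0 in whole cycles. The U6 Ct of the same samples went from 19.80 to 21.92, and after its subtraction the SD of miR-223 was 1.07 log2 units, above the median SD of 0.909 over these assays.

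miR-142-3p had a Ct of 40, 23.97 and 20.97 in the Ly6Chigh samples of mice 1, 2 and 3, and of 19.97, 19.97 and 21.98 in the Ly6Clow samples. It was again undetected only in the Ly6Chigh sample of mouse 1, and the Ly6Chigh value of mouse 3 lay within the Ly6Clow range. Its Ct range among the Ly6Clow samples was 2.01 cycles, equal to the median of the card.

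miR-142-5p, from the other arm of the same hairpin, had a Ct of 40, 29.97 and 25.98 in the Ly6Chigh samples of mice 1, 2 and 3, and of 25.98, 25.99 and 26.95 in the Ly6Clow samples. It was the weakest of the 3 in every sample with a signal, was undetected in the same sample as the other two, and its Ly6Chigh value of mouse 3 fell level with the lowest Ly6Clow values. An assay was tested when 3 or more samples had a Ct under 35, and all 3 passed this filter with 5 samples each.

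**Figure D1:**
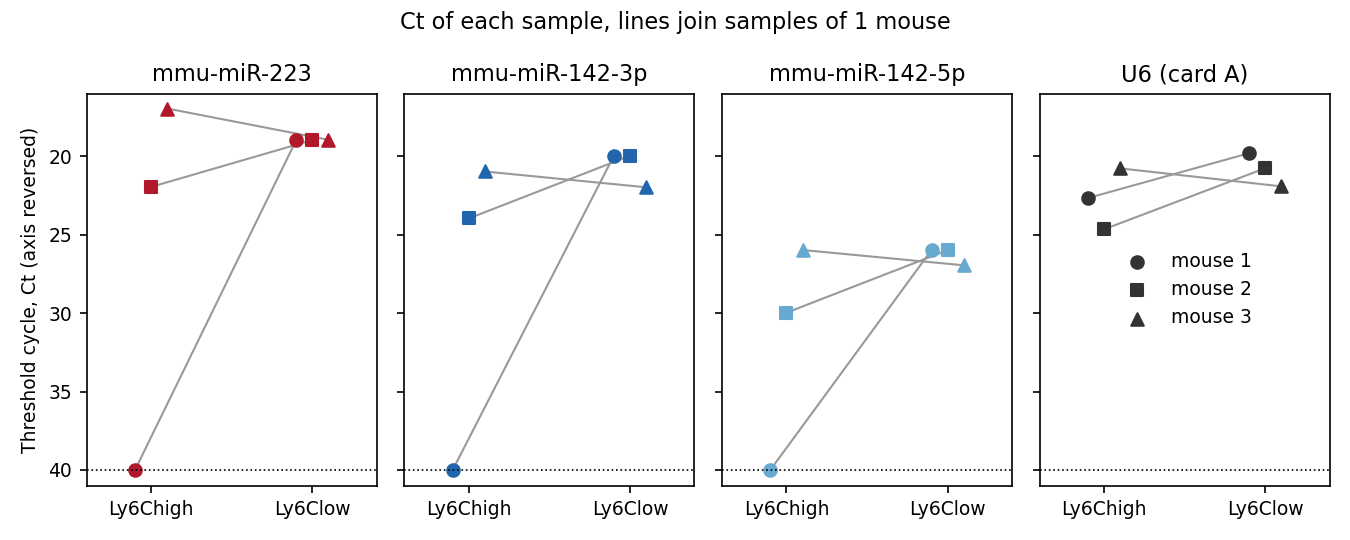
Threshold cycles (Ct, axis reversed so that more template is higher) of miR-223, miR-142-3p, miR-142-5p and the reference RNA U6 of card A in the 6 samples, with a symbol for each mouse and lines joining the Ly6Chigh and Ly6Clow samples of 1 mouse. The 3 miRNAs sit at the dotted line at 40 (no signal) in the Ly6Chigh sample of mouse 1, where U6 had a Ct of 22.66.

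Ranked by Ct among all 750 miRNA assays, with rank 1 for the lowest Ct, miR-223 was at rank 4 and 1 in the Ly6Chigh samples of mice 2 and 3 and at rank 2, 9 and 1 in the Ly6Clow samples of mice 1, 2 and 3. It was thus among the 10 highest signals of each of these 5 samples, in both subsets. On card A alone its ranks were 1 and 1 in Ly6Chigh and 2, 3 and 1 in Ly6Clow samples. In mouse 3 it led the other card A assays by 3.02 cycles in Ly6Chigh and by 2.00 cycles in Ly6Clow monocytes, and in the Ly6Chigh sample of mouse 2 it led miR-16 by 0.03 cycles, which is no measurable lead.

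The assays with a lower Ct than miR-223 were few, and they are named after their values were seen. In the Ly6Clow sample of mouse 1 it was miR-146a, at 17.97, and in that of mouse 2 the card A assays were miR-146a, at 16.96, and miR-16, at 17.96. The others were on card B, 6 in the Ly6Clow and 3 in the Ly6Chigh sample of mouse 2, and hsa-miR-183#, miR-691 and miR-1965 were among them in both. In the Ly6Chigh samples of mice 2 and 3, no card A assay had a lower Ct than miR-223.

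miR-142-3p was at rank 13 and 4 in the Ly6Chigh samples of mice 2 and 3 and at rank 5, 14 and 6 in the Ly6Clow samples of mice 1, 2 and 3, and on card A at rank 7 and 4 and at rank 5, 7 and 6. It stayed within the first 7 assays of card A in all 5 samples. miR-142-5p was at rank 107 and 52 in Ly6Chigh and at rank 56, 91 and 29 in Ly6Clow monocytes, or on card A at rank 59 and 52 and at rank 46, 53 and 29. It thus lay in the upper to middle part of the assays with a signal, of which card A had 118 to 151 in these samples.

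In the Ly6Chigh sample of mouse 1, the 3 miRNAs shared rank 184 with every other undetected assay, behind the 183 with a signal, so this rank orders nothing. Ranks across both cards rest on separate U6 wells once U6 is subtracted. Ranked by the normalized value, miR-223 was at 6 and 1 in Ly6Chigh monocytes of mice 2 and 3 and at 2, 9 and 1 in Ly6Clow monocytes, and miR-142-3p was at 16 and 4 and at 5, 13 and 6. A Ct also depends on how well an assay amplifies its target, so ranks compare signals and not molecule numbers.

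**Figure D2:**
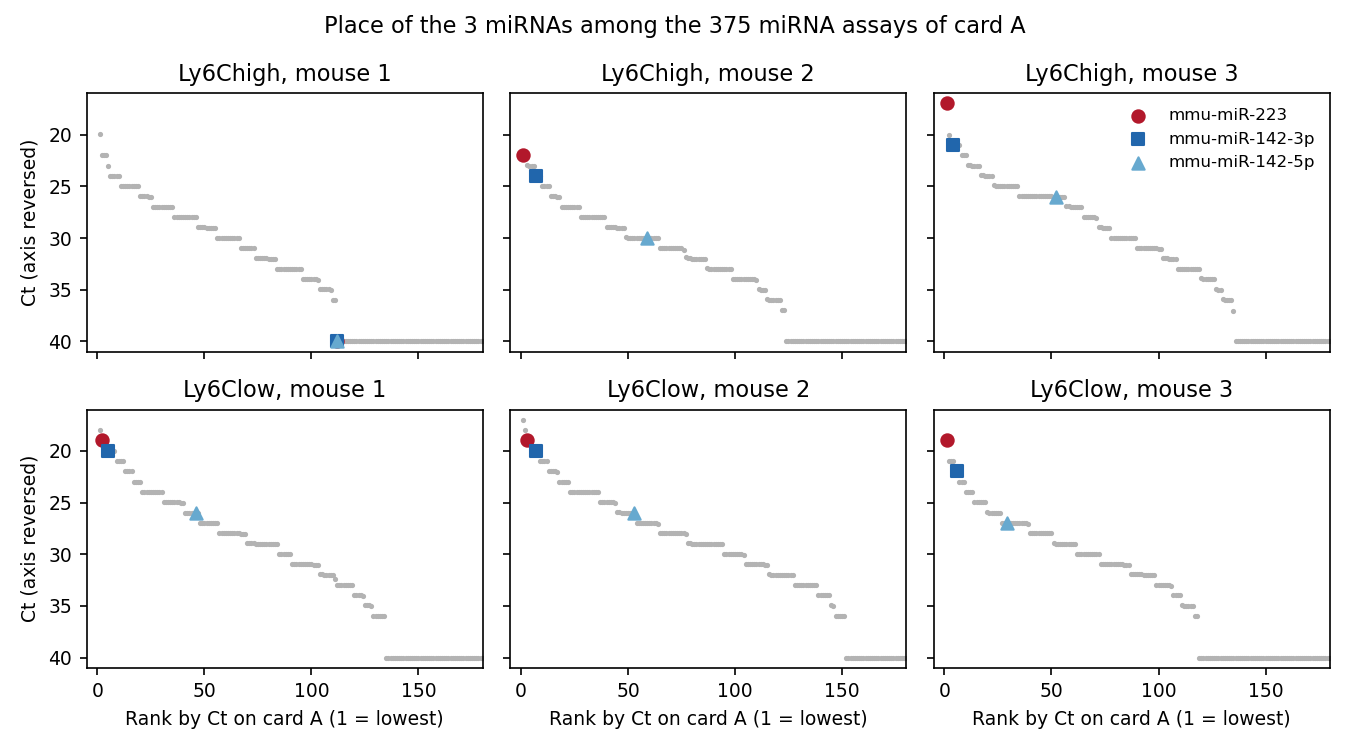
Ct (axis reversed) against rank for the miRNA assays of card A, 1 panel per sample, with miR-223, miR-142-3p and miR-142-5p marked and the other assays in grey; the row of grey points at 40 holds undetected assays, and the axis stops before the end of that row. In 5 samples miR-223 takes rank 1 to 3 and miR-142-3p rank 4 to 7, and in the Ly6Chigh sample of mouse 1 the 3 symbols lie on each other at 40.

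By mean Ct over the 6 samples, miR-223 came to place 6 of 750, at 22.63, between miR-30c at 22.30 and miR-30b at 22.81. miR-142-3p came to place 11, at 24.48, between miR-150 and miR-191, and miR-142-5p to place 63, at 29.14, level with miR-139-5p. These means include the 40 of the undetected sample. Without the Ly6Chigh sample of mouse 1, miR-223 was first, at 19.16, ahead of miR-24 at 20.38, miR-142-3p was at place 6, with a mean of 21.37 that miR-21 and miR-146a shared, and miR-142-5p was at place 43, at 26.97.

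The 10 lowest mean Ct values over the 6 samples were those of miR-21, miR-24, miR-19b, miR-146a, miR-30c, miR-223, miR-30b, let-7e, miR-16 and miR-150. This mean includes the Ly6Chigh sample of mouse 1, so an assay at 40 there is moved down. Over the other 5 samples the 10 lowest were miR-223, miR-24, miR-16, miR-146a, miR-21, miR-142-3p, miR-19b, miR-30c, miR-191 and miR-30b, and of these 4 were at 40 in that sample, miR-223, miR-16, miR-142-3p and miR-191, while the other 6 had a Ct of 21.96 to 26.98 there.

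Expression was taken as −ΔCt, the U6 Ct minus the Ct of the miRNA in the same sample and card, a log2 scale on which 0 is the level of U6. For miR-223 it was −17.34, 2.70 and 3.81 in the Ly6Chigh samples of mice 1, 2 and 3, and 0.83, 1.79 and 2.97 in the Ly6Clow samples. In mice 2 and 3 the Ly6Chigh value was the higher of the pair, while across mice the Ly6Clow value of mouse 3 exceeded the Ly6Chigh value of mouse 2. In whole samples of a subset, fewer cells that make a miRNA and less of it per cell cannot be told apart.

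Within the mouse, Ly6Chigh minus Ly6Clow was 0.91 for miR-223 in mouse 2 and 0.84 in mouse 3, which are ratios of 1.88 and 1.79. In mouse 1 it was −18.17, a value set by the 40 of the undetected reaction and not by a measured Ct. Where it had a signal in both samples, miR-223 was thus higher relative to U6 in Ly6Chigh monocytes, by about 1 cycle.

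For miR-142-3p, −ΔCt was −17.34, 0.69 and −0.20 in the Ly6Chigh samples of mice 1, 2 and 3, and −0.17, 0.79 and −0.06 in the Ly6Clow samples. The within-mouse difference was −0.10 in mouse 2 and −0.14 in mouse 3, so that the samples of 1 mouse were close to each other, and the subsets overlapped. In mouse 1 the difference was −17.17, again set by the undetected reaction.

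For miR-142-5p, −ΔCt was −17.34, −5.32 and −5.20 in the Ly6Chigh samples of mice 1, 2 and 3, and −6.17, −5.22 and −5.03 in the Ly6Clow samples. The within-mouse differences were −0.09 in mouse 2 and −0.17 in mouse 3, as small as those of miR-142-3p, and −11.16 in mouse 1. Both Ly6Chigh values with a signal lay inside the Ly6Clow range.

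The size of these differences was set against the other assays of card A. In mouse 2, the 110 assays with a Ct under 35 in both samples had a median difference of 0.89, and in mouse 3 the 112 such assays had a median of 0.83. miR-223 lay 0.02 above this median in both mice, and miR-142-3p lay −0.992 and −0.968 and miR-142-5p −0.981 and −0.999 from it. Relative to U6, miR-223 was higher in Ly6Chigh monocytes and miR-142 nearly level. Relative to the median difference, miR-223 was level and miR-142 lower by about 1 cycle. Set against the median Ct of each sample (86 assays), mouse 2 lay in between. There miR-223 was 7.51 cycles below the median in Ly6Chigh and 7.01 in Ly6Clow monocytes, and miR-142-3p 5.50 and 6.01. The direction read from these values therefore depended on the reference.

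On card A, 89.6% to 96.4% of the signals of a sample fell no more than 0.05 cycles from a whole cycle, so differences were read in steps of about 1 cycle. In mouse 2, Ct in Ly6Clow minus Ct in Ly6Chigh monocytes was −3 steps for miR-223, as for 30 of the 110 assays with itself counted, with 42 assays at a lower and 38 at a higher step. It was −4 steps for both arms of miR-142, as for 34 assays, with 8 lower and 68 higher. In mouse 3 it was 2 steps for miR-223, as for 44 of 112 assays, with 51 lower and 17 higher, and 1 step for both arms of miR-142, as for 33 assays, with 18 lower and 61 higher.

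The 2 mice thus placed miR-223 exactly 1 step above miR-142, and both at well-filled steps of the card. Of the 89 card A assays under 35 in all 4 samples of mice 2 and 3, 17 had the steps of miR-223 in both mice, among them miR-19b, miR-20a, miR-25, miR-27a and miR-181a. The steps of miR-142 were shared by 14 assays, which include both arms and miR-24, miR-26a, miR-30b, miR-30c and let-7g (these names were picked after their values were seen). By the sign of −ΔCt, 37 of the 89 assays (41.6%) were higher in Ly6Chigh monocytes in both mice, miR-223 with them, and 19 (21.3%) were lower in both, both arms of miR-142 with them. The direction of miR-223 was thus the more common one, and the negative signs of miR-142 were smaller than 1 step.

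**Figure D3:**
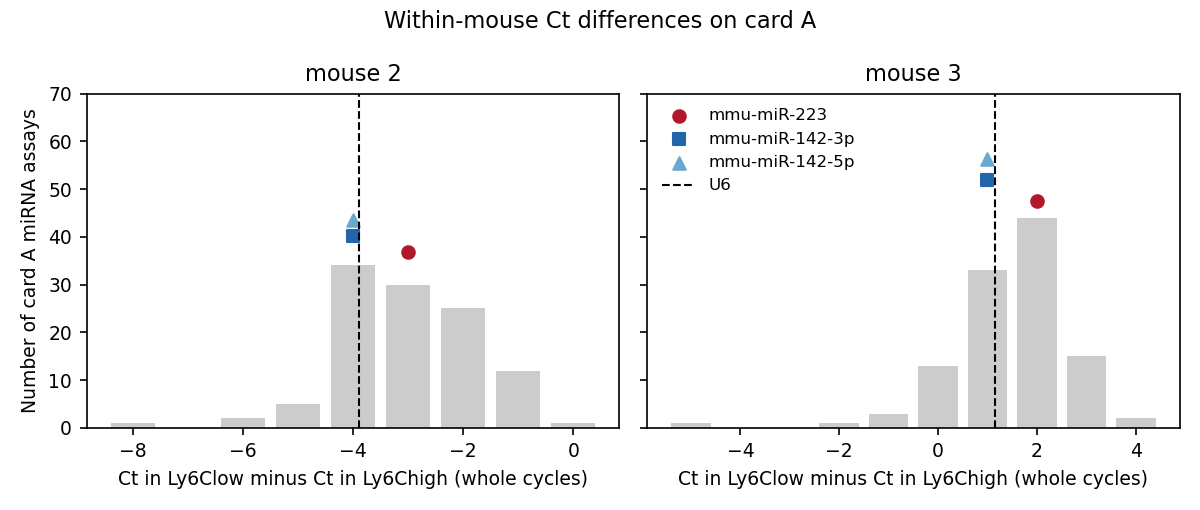
Number of card A miRNA assays (grey bars) at each whole-cycle difference between the Ct of the Ly6Clow and of the Ly6Chigh sample of mouse 2 (110 assays) and mouse 3 (112 assays), for assays under a Ct of 35 in both; symbols above the bars mark the step of miR-223, miR-142-3p and miR-142-5p, their heights carry no value, and the dashed line is the same difference for U6. In both mice the arms of miR-142 lie 1 step below miR-223, and U6 lies close to the step of miR-142.

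Over all 6 samples, mean −ΔCt of miR-223 was −3.61 ± 11.90 (SD, n = 3) in Ly6Chigh and 1.86 ± 1.07 (SD, n = 3) in Ly6Clow monocytes, a difference of −5.47 (standard error 5.81, limma adjusted p = 0.985). For miR-142-3p the means were −5.61 ± 10.16 (SD, n = 3) and 0.19 ± 0.53 (SD, n = 3), a difference of −5.80 (standard error 5.00, limma adjusted p = 0.985). For miR-142-5p they were −9.29 ± 6.97 (SD, n = 3) and −5.48 ± 0.61 (SD, n = 3), a difference of −3.81 (standard error 3.57, limma adjusted p = 0.985). The 2-sided exact permutation test gave p = 0.9, 0.4 and 0.6 in the same order, where 3 samples against 3 cannot go below 0.1.

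Of the 201 miRNA assays tested, limma called 0 at an adjusted p of 0.05 or less (0.0%) and so 0 of the 3 miRNAs, and 2 assays, not among the 3, had an unadjusted p under 0.05. An ordinary linear model called 0 as well, with 4 at an unadjusted p under 0.05. The median difference over the tested assays was −0.45, and −1.14 over those of card A, so the 3 miRNAs lay below the median of their card. For miR-223 this rests on the Ly6Chigh sample of mouse 1, whereas both arms of miR-142 lay below the median of their card without it too.

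Without that sample, mean −ΔCt of miR-223 in the remaining 2 Ly6Chigh samples was 3.26 ± 0.79 (SD, n = 2), and the difference from Ly6Clow monocytes turned to 1.39 (standard error 1.06, 95% confidence interval −1.48 to 4.26, limma adjusted p = 0.965). For miR-142-3p it became 0.06 (interval −2.27 to 2.39) and for miR-142-5p 0.22 (interval −2.05 to 2.49), each with a limma adjusted p of 0.997. The median was 0.63 over all tested assays and 0.89 over card A, so that miR-223 lay above and both arms of miR-142 below the median of their card. limma again called 0 of 201 assays (0.0%), with 4 at an unadjusted p under 0.05, none of them among the 3. The intervals leave room for differences of more than 2 log2 units in either direction for miR-142, so a like level in the subsets is not shown.

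With mouse 1 left out and the mouse as a block, the difference of miR-223 was 0.88 (standard error 0.22, interval −0.28 to 2.03, limma adjusted p = 0.443). That of miR-142-3p was −0.12 (interval −1.27 to 1.03) and that of miR-142-5p −0.13 (interval −1.29 to 1.02), both with a limma adjusted p of 0.857. This fit rests on 2 mice, and it called 0 of 201 assays, with 16 at an unadjusted p under 0.05, 14 of them higher in Ly6Chigh monocytes.

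Because the 3 assays share a card, the Ct gap between any pair of them within a sample needs no reference. miR-142-3p had a lower Ct than miR-142-5p by 6.01 and 5.00 cycles in the Ly6Chigh samples of mice 2 and 3, and by 6.01, 6.02 and 4.97 cycles in the Ly6Clow samples of mice 1, 2 and 3. The arms of the hairpin were thus read 5 to 6 cycles apart in every sample with a signal, and the gap went with the mouse and not with the subset. Within mouse 2 it differed between the subsets by −0.01 cycles and within mouse 3 by 0.03 cycles.

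miR-223 had a lower Ct than miR-142-3p by 2.01 and 4.01 cycles in the Ly6Chigh samples of mice 2 and 3, and by 1.00, 1.00 and 3.03 cycles in the Ly6Clow samples. The gap was larger in mouse 3 than in the other samples, in both subsets, and within mice 2 and 3 it was wider in Ly6Chigh monocytes by 1.01 and 0.98 cycles. Against miR-142-5p, the lead of miR-223 was 8.02 and 9.02 cycles in Ly6Chigh and 7.01, 7.02 and 8.0 cycles in Ly6Clow monocytes, wider in Ly6Chigh monocytes by 1.00 and 1.01 cycles within mice 2 and 3. The shift between the subsets was thus 1 step against either arm, and the difference between mice was as large or larger.

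These 3 gaps were tested with the 2-sided exact permutation test over the 5 samples that have them, since 2 reactions at 40 give no gap. The difference of the mean gaps was −0.16 for miR-142-3p over miR-142-5p (exact p = 1.0, adjusted over the 3 pairs 1.0), 1.34 for miR-223 over miR-142-3p (exact p = 0.4, adjusted 0.6) and 1.18 for miR-223 over miR-142-5p (exact p = 0.2, adjusted 0.6). As 2 samples against 3 cannot go below 0.2, no such test could pass 0.05.

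Set against the median Ct of the 86 card A assays under 35 in these 5 samples, miR-223 lay 7.51 and 9.01 cycles below the median in the Ly6Chigh samples of mice 2 and 3, and 7.01, 7.01 and 9.03 cycles below it in the Ly6Clow samples. Mouse 3 stood highest in both subsets. miR-142-3p lay 5.50 and 4.99 cycles below the median in Ly6Chigh and 6.01, 6.01 and 6.00 cycles below it in Ly6Clow monocytes, so that its Ly6Clow samples were alike within 0.02 cycles and both Ly6Chigh samples lay under them. miR-142-5p was at the median within 0.02 cycles in 3 of the 5 samples, and 1.03 cycles below it in the Ly6Clow sample of mouse 3, with median minus Ct at −0.51 in the Ly6Chigh sample of mouse 2.

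The assays most like each miRNA were named by the root mean square distance of their Ct profiles over the 6 samples, each centred on its own mean, among the 40 card A assays under 35 in all 6. For all 3 miRNAs the nearest were miR-140, miR-186 and miR-24, followed by miR-148a and miR-150, with miR-150 before miR-148a for miR-142-3p. The distances were 4.59 to 5.60 cycles for miR-223, 3.54 to 4.63 for miR-142-3p and 1.69 to 2.78 for miR-142-5p. Since every candidate had a signal in the Ly6Chigh sample of mouse 1 and the 3 miRNAs had none, these distances mostly measure that sample.

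Over the other 5 samples, with the assays under 35 in these 5 as candidates (a choice added after the data were seen), the nearest to miR-142-3p were miR-24, let-7g, miR-30b, miR-194 and miR-423-5p, at 0.0094 to 0.022 cycles. These profiles are the same within the reading steps. The nearest to miR-142-5p was miR-30c, at 0.019 cycles, followed by miR-28, miR-574-3p, miR-21 and miR-29b at 0.388 to 0.483. miR-223 had no profile as near, with miR-106b, miR-99a, miR-100, miR-125b-5p and miR-27a at 0.407 to 0.492 cycles. Neither arm of miR-142 was among the 5 nearest of the other.

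A second assay for miR-223, named after the human miRNA, is on card B, and it was at 40 in 6 of 6 samples. The mouse assay on card A thus gave a strong signal in 5 samples in which the card B assay gave none. This discord was not particular to miR-223. Of 38 names with an assay on both cards, 8 had a card A assay under 35 in at least 3 samples, and for 6 of these the card B assay was at 40 in all 6 samples. The primers named in the labels are those of pool A only, and their part in this was not tested.

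Other miRNAs known from blood cells were set beside the 3. Of 12 names on this list, 11 had an assay, and all 11 were tested. With all samples, 0 of 11 were called by limma and 2 had a difference above 0, with a median of −1.15, close to the median of card A, where 46 of 127 tested assays (36.2%) lay above 0. Without the Ly6Chigh sample of mouse 1, 0 were called and 6 lay above 0, with a median of 0.04 against 0.63 over all tested assays and 0.89 over card A, where 100 of 127 (78.7%) lay above 0, and limma called 0 of 201 (0.0%) either way. In that sample, 4 of the 11 were at 40, as the 3 miRNAs were, namely miR-16, miR-155, miR-342-3p and miR-29a.

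Among them, miR-19b, a member of the miR-17/92 cluster, had within-mouse differences of 0.89 and 0.86 in mice 2 and 3, like those of miR-223, and let-7g had −0.13 and −0.15, like those of miR-142. miR-146a, a brake on inflammatory signalling, differed by −4.11 and −6.17 in these mice, several steps beyond the 3 miRNAs. Of the 5 broadly expressed reference miRNAs, miR-191, miR-16 and miR-484 were at 40 in the Ly6Chigh sample of mouse 1 too, while miR-24 and miR-26a had a Ct of 26.98 and 27.97.

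miR-142 is shared by nearly all blood lineages, so miRNAs of other cells were read in the same samples. Of 3 erythroid miRNAs, miR-144 and miR-486 were at 40 in all 6 samples, and miR-451 had a Ct of 40, 32.97 and 31.96 in Ly6Chigh and of 30.94, 30.96 and 32.98 in Ly6Clow samples. The endothelial and platelet miRNA miR-126-3p had a Ct of 40, 30.98 and 28.99 in Ly6Chigh and of 28.97, 28.99 and 31.97 in Ly6Clow samples. Relative to U6, miR-126-3p was higher in Ly6Chigh monocytes by 1.90 and 1.84 within mice 2 and 3, the direction of miR-223 and about 1 step more, while miR-451 differed by 1.89 and −0.13. Both were weak beside miR-223 and lost their signal in the same sample as the 3 miRNAs. miR-126-5p had a signal in the samples of mouse 2 only, with a Ct of 35.02 in Ly6Chigh and 32.99 in Ly6Clow monocytes.

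Of the 3 miRNAs often used for lymphocytes, which monocytes also make, miR-150 had the lowest mean Ct over the 5 samples, 22.97, and its within-mouse differences of 0.88 and −2.14 in mice 2 and 3 had opposite signs, unlike those of miR-223 and miR-142. miR-181a differed by 0.87 and 0.83 in these mice, the same steps as miR-223, and miR-342-3p by −2.10 and −1.12. The signal of these 3 was summed as 2 to the power of 40 minus Ct, without subtraction of U6. The sums were 34060, 78660 and 133900 in Ly6Chigh and 1099000, 1091000 and 140800 in Ly6Clow samples, lowest where miR-223 and miR-142 were undetected. In that sample the members went different ways, with miR-181a at 24.99, near its lowest Ct, and 97.0% of the sum, miR-150 at 29.98 and miR-342-3p at 40. Such sums also follow the amount of template. The U6 Ct of card A was 22.66, 24.66 and 20.77 in Ly6Chigh and 19.80, 20.76 and 21.92 in Ly6Clow samples. Of 9 epithelial assays, 3 to 6 were under 35 in a sample, and miR-429 and miR-205 were at 40 in all 6. Their signal, summed in the same way without U6, was 268000, 68990 and 8638 in Ly6Chigh and 19200, 1097000 and 2749 in Ly6Clow samples. Single assays carried the 3 largest of these sums, the mouse assay of miR-200b on card A 99.5% in the Ly6Chigh sample of mouse 1, and the human assay of miR-200b on card B 97.0% and 98.1% in the Ly6Chigh and Ly6Clow samples of mouse 2. In the Ly6Chigh sample of mouse 1, that mouse assay had its lowest Ct, 21.98, while miR-203 had its highest, 31.99, and miR-141 and miR-200a were at 40. The 40s were not particular to it. miR-141 was also at 40 in the Ly6Chigh sample of mouse 2, and miR-200a in every sample but the Ly6Clow sample of mouse 1. Muscle assays were under 35 in at most 1 of 5 in any sample. The liver miRNA miR-122 and the neuronal miR-9 also had their lowest Ct in the Ly6Chigh sample of mouse 1, 28.98 and 26.98, where miR-223 and miR-142 were undetected. The other neuronal miRNA, miR-124, was at 40 in that sample and in both samples of mouse 3, and had a Ct of 31.97 to 34.01 in the other 3. The part of other cells in this result was not tested.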

How the data were processed

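The authors deposited Ct values of 6 samples, a log2 scale that falls as template rises, and a table of ΔCt, also in log2 units, in which they subtracted the U6 Ct of the same sample and card (checked as 1 constant per sample and card). For card B of the Ly6Clow sample of mouse 1, 1 U6 well had a Ct of 21.28 and the mean over the U6 wells was 21.40. Which of these, if either, the authors subtracted was not resolved. The 3 miRNAs are on card A, where the U6 values matched. The authors' table of ratios between the subsets within each mouse was not used. The software and threshold behind Ct are not given in the sources used here. Subsets and mice come from the labels.

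The 18 control wells were left out. Assays under a Ct of 35 in 3 or more of the 6 samples were compared on −ΔCt with limma 3.58.1 (lmFit, eBayes) in R 4.3.3, with Benjamini-Hochberg adjustment over 201 assays and a threshold of 0.05, without a block. The limma steps were tested on simulated data. Members, gaps and ranks were computed with scipy 1.17.1 (exact permutation tests), numpy 2.4.6 and pandas 2.3.3 in Python 3.11.15, and drawn with matplotlib 3.10.9. Undetected reactions kept the value of 40. The number of arrays limits the precision.

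The miRNAs named are the 3 members, the fixed lists, neighbours in mean Ct, the 10 lowest mean Ct values and the 5 nearest profiles. Others were picked after their values were seen. They were named for their Ct range in Ly6Clow samples, for the card that stands apart, for a Ct lower than that of miR-223 or for shared steps. Members and lists were chosen with earlier results of these data known. Alternatives were 6 other normalizations, 3 other filters, a floor of 35, undetected reactions as missing, the mouse as a block, 2 other models, and samples, mice or card A of the Ly6Chigh sample of mouse 1 left out. Chromosome and strand are those of RefSeq, and start and end are left out, since the array files state no build.

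Same-numbered samples come from 1 mouse by the labels. As a check, the deviations of a mouse's samples from their subset means were correlated over 201 assays, with r = 0.32 in mouse 1, 0.62 in mouse 2 and 0.72 in mouse 3. For card A alone, r was −0.09, 0.41 and 0.41.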

Additional observations from a re-analysis of the deposited data

How the results depend on the processing

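limma called 0 of the tested assays under all 26 alternatives, with 1 to 16 at an unadjusted p under 0.05. None of the 3 miRNAs passed the threshold in any of 25 alternatives each, with adjusted p from 0.443 to 1.0 for miR-223 and from 0.486 to 1.0 for both arms of miR-142. The negative log2 difference of all samples was kept in 19 of 25 for miR-223 and in 22 of 25 for each arm, in sign only, since the values for miR-142-3p and miR-142-5p shrank to −0.12 and −0.13 without mouse 1 and to −0.76 and −0.60 without its Ly6Chigh sample and with the card median as reference, and, with all samples and the reference miRNAs of card A, to −2.14 and −0.14, where miR-223 was at −1.80. Of these reference miRNAs, miR-191, miR-16 and miR-484 were themselves at 40 in the Ly6Chigh sample of mouse 1. Their mean there carries values that were not measured, so the smaller differences of that setting are no better measured. The filter of a Ct under 35 in all 6 samples left none of the 3. The difference turned positive, to 1.39, 0.056 and 0.22 for miR-223, miR-142-3p and miR-142-5p, with undetected reactions as missing, with card A of the Ly6Chigh sample of mouse 1 as missing, and without that sample. For miR-223 it was also 0.88 without mouse 1, with or without the replicate block, and 0.58 without that sample and with the median of the card as reference, an alternative added after the data were seen. With single samples left out, the difference went from −9.18 to 1.39 for miR-223, from −8.96 to 0.056 for miR-142-3p and from −5.85 to 0.22 for miR-142-5p. The gaps have no value in the Ly6Chigh sample of mouse 1, so only the settings without it bear on them. Without that sample and without mouse 1, the difference was −0.16 and 0.010 for miR-142-3p over miR-142-5p, 1.34 and 1.00 for miR-223 over miR-142-3p, and 1.18 and 1.01 for miR-223 over miR-142-5p. The planned settings that keep it, with a gap of 0 in place of a reading, are listed only for completeness, with −2.00, 0.33 and −1.66 over all samples, −3.16, −0.67 and −3.33 as the lowest with single samples left out, and −0.0066 for miR-223 over miR-142-3p without mouse 2. With all mice and the mouse as a replicate block, the differences were −5.47, −5.80 and −3.81, and no call changed under the paired fits. The median rank over the samples was 3 for miR-223, 9.5 for miR-142-3p and 73.5 for miR-142-5p, with the shared rank of the undetected sample counted, and 2, 6 and 56 without that sample. Over 9 alternatives each, the median rank went from 1.5 to 4, from 3.5 to 13 and from 30 to 91. The lowest values came with ranks among the assays under 35 in all 6 samples. That set and card A alone, also used, hold fewer assays than the 750, so these ranks are not on 1 scale. Steps of about 1 cycle, 3 mice and 1 card that stands apart limit what these values can resolve.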
